A study of Mus musculus with 10 samples.

Results

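The 10 AP-1 genes followed here were Fos, Fosb, Fosl1, Fosl2, Jun, Junb, Jund, Batf, Batf3 and Atf3, and what was measured was how open the chromatin around them was in group 2 innate lymphoid cells (ILC2s) of 5 mouse tissues. A region was taken when its centre lay inside one of these genes or when the nearest RefSeq transcription start site (TSS) was that of one of them. By this rule 67 of the 50039 open chromatin regions (OCRs) belonged to the family, 19 of them to Fos, 11 to Batf, 10 to Fosb, 9 to Jun, 6 to Batf3, 3 each to Junb and Atf3, and 2 each to Fosl1, Fosl2 and Jund. Of the 67, 9 were promoter regions, with a centre from 1000 bp upstream to 100 bp downstream of the TSS, and Jund was the gene without one. A centre inside the gene was found for 14 of the 67. The nearest TSS does not show which gene a distant region acts on.

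ILC2s were sorted from the lung, the pancreas, the small intestine (SI), the large intestine (LI) and the bone marrow (BM) of male C57BL/6 mice of 6 weeks, wild type and untreated, and ATAC-seq, in which a transposase cuts and tags accessible DNA, was run on 50000 cells per library. Each tissue had 2 libraries, described as biological duplicates. Cells were pooled from 16 mice (BM, lung and pancreas) or 10 mice (SI and LI). Whether each library had its own pool of that size is not stated. The spread between the 2 libraries is not that between single animals. BM ILC2s were sorted as Lin–ST2+CD25+, those of LI, lung and pancreas as Lin–CD45+CD127+ST2+CD25+, and those of SI as Lin–CD127+Thy1 low CD45+KLRG1+. BM was flushed without enzyme and its cells were sorted on a different instrument, the lung and pancreas were digested with collagenase, and the intestines were first shaken with dithiothreitol and EDTA and then digested for longest, so that gate, sorter, digestion and pool size cannot be told apart from the tissue.

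AP-1 is a dimer of basic leucine zipper proteins. Fos proteins cannot pair with themselves and bind DNA with a Jun partner, while Jun proteins can also form dimers among themselves. Batf and Batf3 pair with Jun proteins and, in lymphocytes, bind beside IRF4 or IRF8, and Atf3 is a stress-induced member of the ATF branch. Fos, Fosb, Jun, Junb and Atf3 are immediate early genes, which are transcribed within minutes of a stimulus, cell dissociation included. In ILC2s AP-1 acts downstream of the receptors for IL-33 and other alarmins and takes part in the induction of type 2 cytokine genes.

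The 10 libraries held 10282987 (pancreas replicate 2) to 32797872 reads (lung replicate 2) in the 50039 regions. Values are given in CPM, the reads of a region scaled to a common library size by TMM. Promoter regions of 10 of 10 ILC2 genes were present, and their summed accessibility was 293 to 452 CPM per library. The 2 promoter regions of Il1rl1, which encodes ST2, were at 2.84 and 3.03 CPM and at 1.69 and 0.523 CPM in the SI libraries, the lowest of the tissues at both. LI, which was sorted on ST2, had 5.67 and 7.39 CPM at the first, where BM, lung and pancreas had 13.0 to 27.0. At the second, BM and LI had 3.77 to 4.95 CPM and lung and pancreas 9.25 to 14.96. The 2 promoter regions of Klrg1, a marker in the SI gate, were lowest in BM, at 3.57 and 2.76 CPM and at 7.58 and 8.70 CPM. All other libraries had 9.57 to 22.4 CPM at the first Klrg1 region and 22.4 to 55.4 CPM at the second. At the promoters of Id2 and Rora BM was highest. The promoters of 3 of 5 T cell genes (Cd3e, Cd3g and Lck) summed to 9.33 to 18.9 CPM, that of Cdh1 of epithelium was at 2.89 to 9.49 CPM, and no region was a promoter of any of the B cell, myeloid, mast cell, NK and ILC1 or ILC3 genes of the lists. The part of other cells in the results was not tested.

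The share of regions that differed between tissues around the AP-1 genes was close to that of the whole table. In a test across the 5 tissues, 30 of the 67 regions differed at an adjusted p under 0.05, against 44.2% of all 49981 regions tested, and the 30 make 44.8% of the 67. Against the mean of the other 4 tissues, 16 regions were higher in BM (background 14.9%) and 8 were lower (17.0%). The same comparison gave 5 higher regions (8.80%) and 0 lower regions (1.27%) in LI, and 2 higher (6.53%) and 4 lower (7.03%) in lung. It gave 2 higher (8.27%) and 4 lower (2.11%) in pancreas, and 8 higher (11.8%) and 8 lower (10.2%) in SI. The share of the 67 stood above the background for regions higher in BM (23.9%) and lower in pancreas (5.97%), and below it for regions lower in BM (11.9%) and higher in pancreas (2.99%). In SI both shares were 11.9%.

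**Figure D1:**
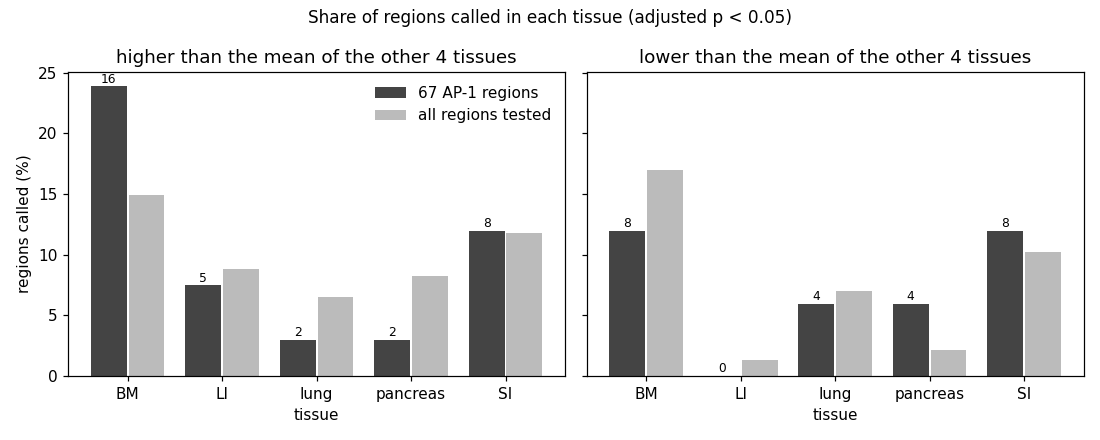
Percentage of regions called higher (left) or lower (right) in each tissue than the mean of the other 4 at an adjusted p under 0.05, for the 67 AP-1 regions (dark bars, with the number of regions above) and for all 49981 regions tested (light bars). The gap between dark and light bars is widest for regions higher in BM, 16 of 67.

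The BM calls are given by where a region lay, beside the shares over all regions of the same class. Of the 9 promoters, 4 were higher in BM and 0 lower, where 27.4% and 4.55% of all promoters were. Of the 17 other regions within 5000 bp of a TSS, 5 were higher and 1 lower, against 13.4% and 13.2%. Of the 41 regions farther away, 7 were higher and 7 lower, against 11.4% and 22.1%. The median log2 fold change of BM was 0.31 over the 9 promoters, but it was also 0.25 over all promoters of the table, and both fell when trends in GC content and width were removed, to 0.17 and 0.11. The 16 regions higher in BM had a median GC content of 58.6% and the 8 lower ones one of 51.8%, against 53.2% over the 67. The count of 16 became 9 when libraries were scaled by their size alone, and 8 or 7 when BM replicate 1 or 2 was left out.

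A tissue-specific OCR (TS OCR) was one that was higher than in each of the other 4 tissues at an unadjusted p under 0.05, and a commonly decreased one was lower in the same way. BM had 6 such TS OCRs of the family (4.50% of all regions), LI had 2 (1.30%), SI had 1 (2.80%), and lung (1.30%) and pancreas (1.43%) had 0. Commonly decreased regions numbered 5 in SI (3.59%), 4 in BM (6.63%), 2 in pancreas (0.572%), and 0 in LI (0.132%) and lung (1.72%). The 6 of BM lay at Jun, Junb, Jund and Fos, and 3 of its 4 decreased regions lay in or past Batf. With an adjusted p under 0.05 asked for in each contrast, 3 TS OCRs and 4 decreased regions were left.

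Between pairs of tissues, 3 of the 4 pairs with BM had the most differences. BM and SI differed at 22 regions (25.8% of all regions), BM and LI at 20 (30.9%), BM and pancreas at 19 (24.2%) and BM and lung at 11 (19.0%). Lung and SI differed at 15 (21.0%), pancreas and SI at 10 (20.5%), LI and SI at 8 (8.44%) and LI and lung at 6 (10.9%). The fewest differences were between LI and pancreas, at 3 regions (3.27%), and between lung and pancreas, at 2 (5.82%). The 22 regions that differed between BM and SI make 32.8% of the 67, above the background, and the 10 between pancreas and SI make 14.9%, below it.

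**Figure D2:**
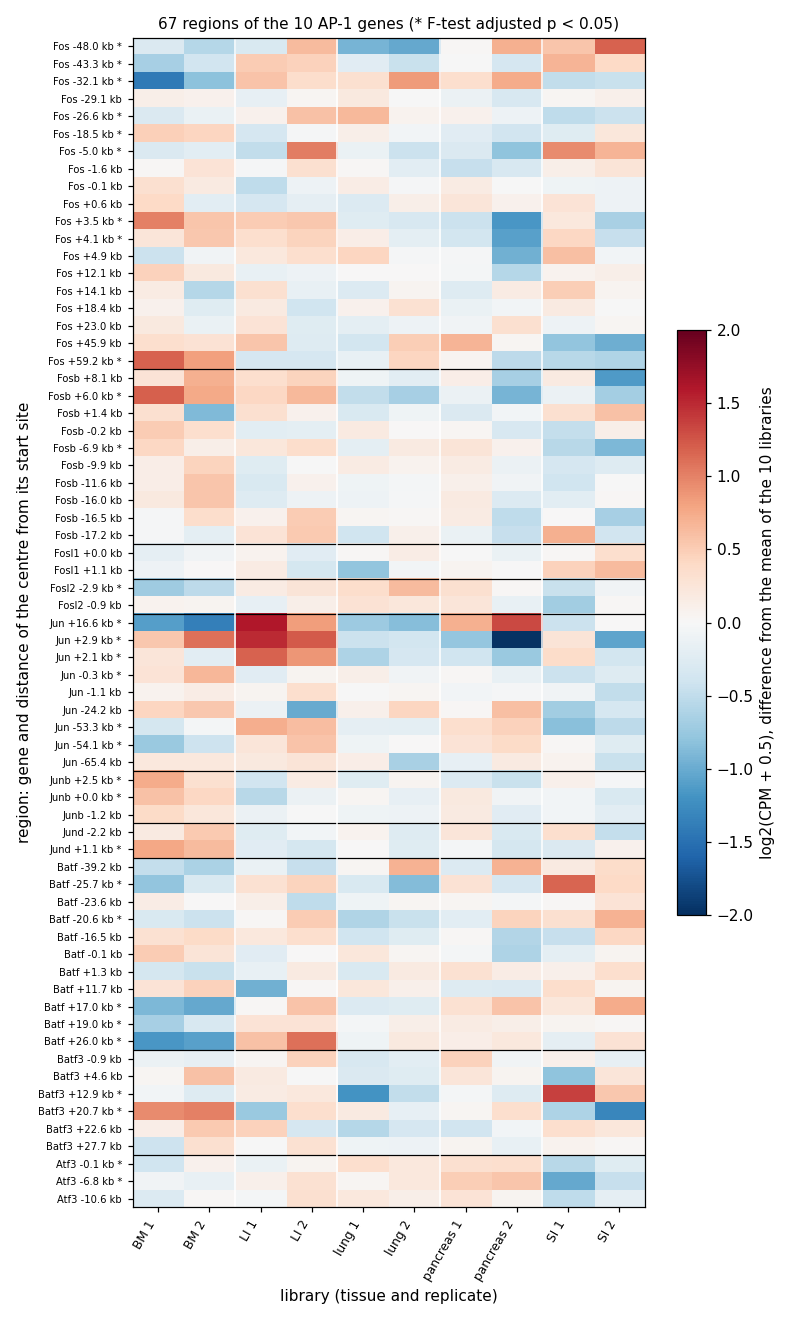
Accessibility of the 67 regions in the 10 libraries, as log2(CPM + 0.5) minus the mean of the region over the libraries (red higher, blue lower), with regions ordered by position within each gene and named by the distance of their centre from the TSS. Stars mark the 30 regions that differed among tissues, and the widest differences are at Jun, where the region at +16.6 kb was lowest in BM and highest in LI.

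The promoters of Jun and Junb, and the first exon of Jund, were most open in BM. Jun, the founding AP-1 subunit and the target of the JNK kinases, had a promoter region 0.3 kb upstream of its TSS with 183 and 240.1 CPM in BM, 128 and 156 in LI, 112 and 126 in SI, 164 and 143 in lung, and 153 and 135 in pancreas. Both BM libraries were above all others and both SI libraries below all others. BM was 1.52-fold above the mean of the other 4 (log2 0.61 ± 0.15 SE, adjusted p = 0.0055), and pair by pair it differed from LI (adjusted p = 0.035), pancreas (0.048) and SI (0.0049), while the difference from lung did not pass (0.11). The call was lost without BM replicate 2 (log2 0.40, adjusted p = 0.16) and with GC and width trends removed (log2 0.37, adjusted p = 0.064).

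Junb, which antagonises Jun at some promoters and is itself an immediate early gene, had 3 regions, each highest in BM. Its promoter region, centred on the TSS, had 122 and 107 CPM in BM, 55.1 and 74.4 in LI, 77.8 and 65.6 in SI, 83.4 and 72.2 in lung, and 93.0 and 76.9 in pancreas. BM was 1.54-fold higher than the mean of the others (log2 0.62 ± 0.15, adjusted p = 0.0051), and the pairs that differed were BM with LI (0.0056) and with SI (0.019). The region 2.5 kb downstream of the TSS, past the end of this single-exon gene, had 199 and 148 CPM in BM and 87.7 to 133 elsewhere (log2 0.67 ± 0.16, adjusted p = 0.0053). Without BM replicate 1 neither call held, with adjusted p of 0.10 at the promoter and 0.19 downstream.

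Jund, the Jun protein that is expressed broadly and changes little upon stimulation, had a larger BM difference than either promoter. Its region 1.1 kb downstream of the TSS, in the 5′ UTR part of exon 1, had 191 and 174 CPM in BM. The other libraries had 95.7 and 87.8 CPM in LI, 91.3 and 119 in SI, 112 and 94.6 in lung, and 108 and 87.0 in pancreas. BM was 1.83-fold higher (log2 0.88 ± 0.14, adjusted p = 0.00028) and differed from each tissue, with adjusted p from 0.0014 (LI) to 0.0066 (lung), and no pair among the other 4 tissues passed the test. The call held under each of the 17 alternatives run, with a highest adjusted p of 0.016. This region held the family's only exact copy of TGACGTCA, the full CRE that binds ATF and CREB proteins and AP-1 dimers. Of all regions 1.93% hold such a copy. Shorter forms of the CRE were not searched for, and tgacgta stands in the Fos and Fosb promoter stretches printed below. The Jund site is printed on the gene's strand in capitals, from chr8:70698724-70698753.
Jund exon 1: ccccacccccaTGACGTCAacccacaatgc

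**Figure D3:**
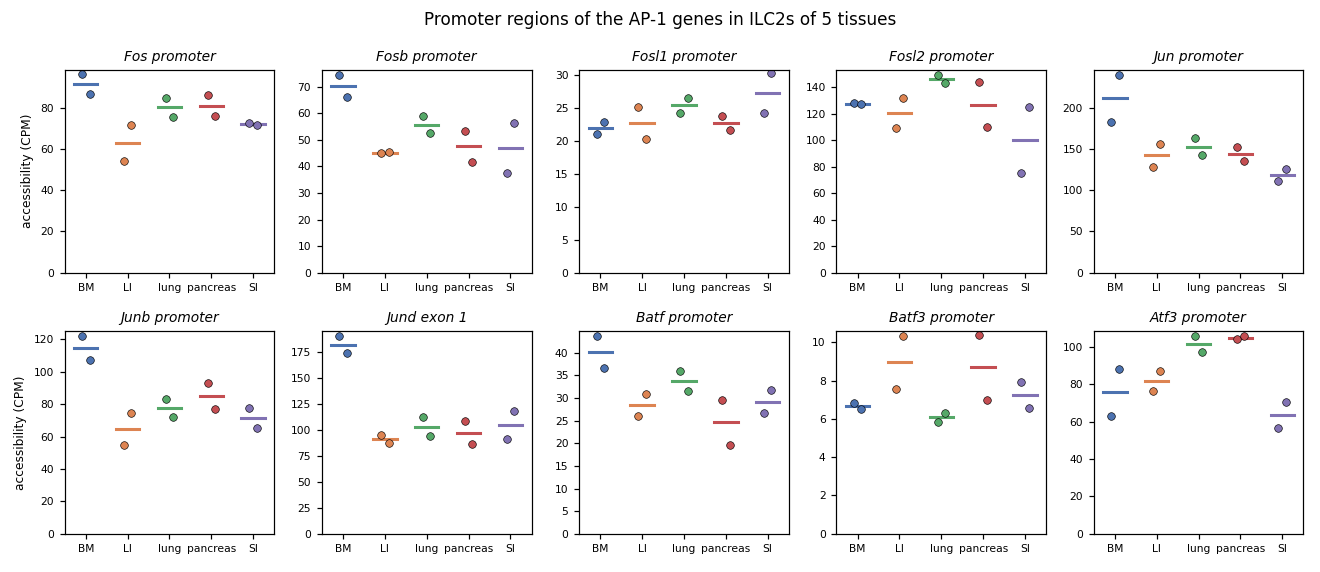
Accessibility in CPM of the 9 promoter regions and of the Jund exon 1 region, by tissue. Points are the 2 libraries of a tissue and horizontal lines their mean, and the axes start at 0. The BM points lie above all others for Fos, Fosb, Jun, Junb, Jund and Batf, and the SI points include the lowest value for Atf3. The points of the tissues overlap for Fosl1 and Fosl2, and for Batf3 both lung points lie just below all others.

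Per kb of region, Jun had the most accessible promoter, with a mean of 288 CPM per kb over the 10 libraries, followed by Fosl2 with 234 CPM per kb. The promoters of Atf3 (139), Junb (135), Fos (119) and Fosb (104) followed, and those of Batf (52.4), Fosl1 (46.5) and Batf3 (13.8 CPM per kb) were the least accessible. Jund's exon 1 region, no promoter by the rule, stood at 182 CPM per kb.

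The Fos and Fosb promoters showed the BM difference less firmly. Fos, the main partner of Jun after acute stimulation, had 96.5 and 86.6 CPM at its promoter in BM, 54.0 and 71.6 in LI, 72.6 and 71.5 in SI, 84.8 and 75.8 in lung, and 86.4 and 75.9 in pancreas. The BM libraries lay above the others, though replicate 2 was barely above pancreas replicate 1, and the contrast did not pass (log2 0.31 ± 0.14, adjusted p = 0.11). The 1 pair that differed was BM and LI (adjusted p = 0.037). Fosb, which encodes a Fos protein and its truncated form ΔFosB, had 74.6 and 66.1 CPM at its promoter in BM, 44.9 and 45.6 in LI, 37.4 and 56.6 in SI, 59.1 and 52.5 in lung, and 53.4 and 41.8 in pancreas. BM was 1.44-fold higher (log2 0.53 ± 0.16, adjusted p = 0.019), and the call was lost without BM replicate 1 (adjusted p = 0.20) or 2 (0.062) and with GC and width trends removed (log2 0.22, adjusted p = 0.28).

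Both promoters held a CArG box, the site of serum response factor through which growth factor and MAP kinase signals reach the immediate early genes. CArG boxes, searched on both strands by their usual consensus, were found in 7 of the 67 regions (10.4%) and in 2.40% of all regions. Of these 7, 6 were highest in BM, 7 had a BM log2 fold change above 0 (median 0.42), and 4 were called higher in BM. Of the 60 regions without a box, 20 were highest in BM, 31 were above 0 and 12 were called higher. The test across the tissues went the other way, with 2 of the 7 passing against 28 of the 60. The Fosb promoter, called higher in BM, did not pass it (adjusted p = 0.074). Whether regions with a box were more often higher in BM over the whole table was not tested. The 7 regions lay at Fos (3), Junb (2), Fosb (1) and Jun (1). The stretches are shown because this family's regions held the box at a higher share than the table did, each on its gene's strand in mm10 with the box in capitals. The Fos stretch runs from 320 to 51 bp upstream of the TSS (chr12:85473570-85473839) and the Fosb stretch over the last 250 bp upstream (chr7:19310119-19310368).
Fos promoter: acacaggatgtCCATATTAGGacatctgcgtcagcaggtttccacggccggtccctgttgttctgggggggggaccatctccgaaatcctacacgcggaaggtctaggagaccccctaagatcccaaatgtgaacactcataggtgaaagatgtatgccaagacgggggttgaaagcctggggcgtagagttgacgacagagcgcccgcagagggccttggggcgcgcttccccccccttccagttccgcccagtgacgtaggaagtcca
Fosb promoter: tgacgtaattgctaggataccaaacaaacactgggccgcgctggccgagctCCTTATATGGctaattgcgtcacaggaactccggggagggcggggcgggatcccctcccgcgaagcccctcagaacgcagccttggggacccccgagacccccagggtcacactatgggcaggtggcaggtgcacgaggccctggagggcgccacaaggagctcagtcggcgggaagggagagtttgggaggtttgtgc

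The other 5 boxes, with 15 bases on each side, came from a region past the 3′ end of Fos (chr12:85478166-85478205), one 12.1 kb downstream of its TSS (chr12:85486099-85486138), one 65.4 kb upstream of Jun (chr4:95117388-95117427), the one past the 3′ end of Junb (chr8:84976609-84976648) and one 1.2 kb upstream of Junb (chr8:84980144-84980183). The last 2 and the Fos region at 12.1 kb were among those called higher in BM. For the Junb region 1.2 kb upstream and that Fos region the adjusted p in BM was 0.046 at each. Neither passed the test across the tissues (adjusted p = 0.21 and 0.11). The distant Jun region, at 1.30 to 2.87 CPM, did not pass it either (0.71).
Fos past the 3′ end: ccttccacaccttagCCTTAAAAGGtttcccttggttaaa
Fos downstream: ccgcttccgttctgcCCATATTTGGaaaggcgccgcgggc
Jun upstream: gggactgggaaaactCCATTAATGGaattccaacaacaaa
Junb past the 3′ end: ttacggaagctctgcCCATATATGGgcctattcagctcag
Junb upstream: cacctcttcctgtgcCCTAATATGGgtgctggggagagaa

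Away from the promoters, Jun carried the widest differences of the family, and LI rather than BM led them. Of its 9 regions 6 differed among the tissues (44.2% of all regions did). In LI 7 were highest, and 4 were called higher there (8.80% of all regions). When predicted transcripts also count as genes, 3 of the 9 stay with Jun, and the promoter and the regions 53.3 and 54.1 kb upstream are among those nearer to another start site. The region 16.6 kb downstream of the TSS had the smallest p of all 67. It was at 8.46 and 4.78 CPM in LI and 4.36 and 6.90 in pancreas, at 1.69 and 2.47 in SI, 1.29 and 1.13 in lung, and 0.881 and 0.644 in BM. LI and pancreas overlapped and lay above all other libraries, and BM lay below all of them. Against the mean of the others the log2 fold change was 1.85 ± 0.30 in LI (adjusted p = 0.00080), 1.56 ± 0.31 in pancreas (0.0038), −1.19 ± 0.36 in lung (0.039) and −2.02 ± 0.40 in BM (0.0014). The LI call was lost without LI replicate 1 (log2 1.40, adjusted p = 0.059).

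This region held 2 copies of TGANTCA, a pattern that reads the same on both strands. With C or G in the middle it is the TPA response element (TRE), the preferred site of Fos:Jun dimers. On the strand of Jun, the copy TGACTCA has this form and the copy TGATTCA does not. A stretch of 134 bases over both, on the strand of Jun, is shown from chr4:95035675-95035808, followed by the site in the region 53.3 kb upstream of the TSS (chr4:95105548-95105594), with the sites in capitals.
Jun downstream: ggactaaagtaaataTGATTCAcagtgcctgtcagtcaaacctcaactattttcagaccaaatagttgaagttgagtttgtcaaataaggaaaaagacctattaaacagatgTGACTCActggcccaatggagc
Jun far upstream: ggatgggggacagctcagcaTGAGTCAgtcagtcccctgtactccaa

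The region 53.3 kb upstream was at 32.0 and 29.8 CPM in LI, 24.3 and 26.7 in pancreas, 16.8 and 16.6 in lung, 14.9 and 18.6 in BM, and 10.5 and 13.2 in SI. Like the downstream region it was highest in LI and next in pancreas, but its lowest tissue was SI, where it was commonly decreased (log2 −0.87 ± 0.18, adjusted p = 0.0023, against 0.86 ± 0.16 and 0.0022 in LI). Without LI replicate 1 the adjusted p in LI was 0.0501. Its neighbour 54.1 kb upstream was commonly decreased in BM, at 11.1 and 14.1 CPM against 16.0 to 28.3 elsewhere (log2 −0.74 ± 0.18, adjusted p = 0.0061, and 0.12 without BM replicate 1). The remaining regions at 24.2 and 65.4 kb upstream had 1.04 to 4.21 CPM, the region 1.1 kb upstream had 38.1 to 67.4 CPM, and none of the 3 passed the test across the tissues.

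Jun's 3′ UTR held a pair of regions that were both highest in LI. The one 2.9 kb downstream of the TSS was at 54.0 and 45.0 CPM in LI and 27.6 and 41.5 in BM, but at 22.9 and 8.85 in SI, 13.9 and 14.6 in lung and 10.9 and 4.42 in pancreas. LI lay above all other libraries, at log2 1.65 ± 0.27 (adjusted p = 0.00078), BM was also higher (1.00 ± 0.28, 0.011), and pancreas was lower, at −1.65 ± 0.34 (0.0050), and commonly decreased. The one 2.1 kb downstream was a TS OCR of LI, at 47.8 and 38.7 CPM against 12.3 to 27.1 elsewhere (log2 1.29 ± 0.19, adjusted p = 0.00041). Both LI calls held under each of the 17 alternatives run. At the Jun promoter LI was not called (log2 −0.11 ± 0.16, adjusted p = 0.72).

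**Figure D4:**
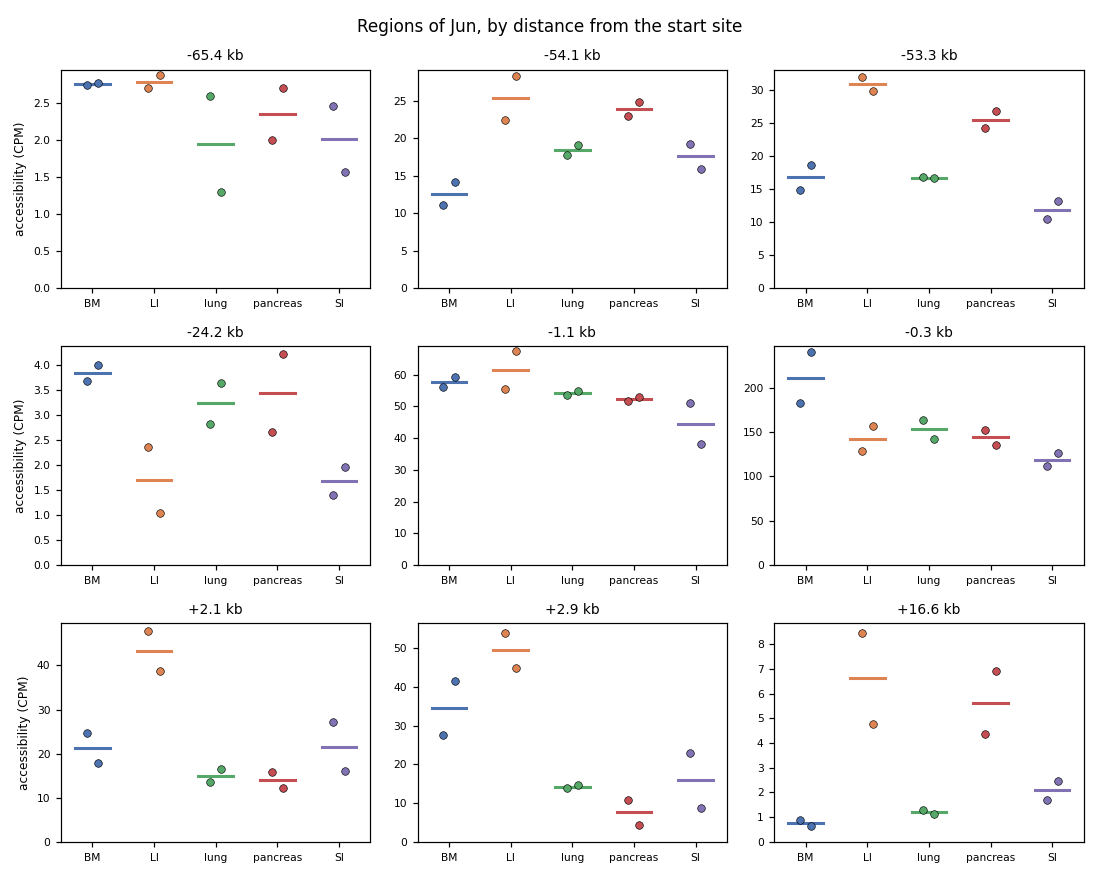
Accessibility in CPM of the 9 regions of Jun by tissue, ordered from 65.4 kb upstream to 16.6 kb downstream of the TSS. Points are the 2 libraries of a tissue, horizontal lines their mean, and each panel has its own axis from 0. BM is highest at the promoter (−0.3 kb), LI at the 3′ UTR (+2.1 and +2.9 kb), and LI with pancreas at +16.6 kb.

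Fosb and Fos also had regions at their 3′ ends that were higher in BM. In the 3′ UTR of Fosb, 6.0 kb downstream of the TSS, accessibility was 59.8 and 43.9 CPM in BM, 34.3 and 40.5 in LI, 23.7 and 16.0 in SI, 18.2 and 16.1 in lung, and 23.6 and 13.3 in pancreas. BM and LI both lay above the 6 other libraries, with log2 fold changes of 1.23 ± 0.19 in BM (adjusted p = 0.00018) and 0.65 ± 0.20 in LI (0.051), and the difference between BM and LI did not pass (0.19). At Fos, the region 3.5 kb downstream of the TSS, just past the 3′ end, was at 23.5 and 17.0 CPM in BM, 16.5 and 16.9 in LI, 13.3 and 7.11 in SI, 9.60 and 9.05 in lung, and 8.42 and 4.85 in pancreas. It was higher in BM (log2 0.99 ± 0.23, adjusted p = 0.0035) and lower in pancreas (−0.98 ± 0.27, 0.027), while LI did not pass against the mean of the rest (0.64, adjusted p = 0.094). The next one, at 4.1 kb, was commonly decreased in pancreas, at 11.95 and 7.12 CPM against 11.2 to 23.0 elsewhere, so that it overlapped SI (log2 −0.90 ± 0.26, adjusted p = 0.034). That call rested on pancreas replicate 2, without which it was −0.59 with an adjusted p of 0.42, and it also missed the threshold without BM replicate 2, LI replicate 2, lung replicate 1 or pancreas replicate 1 (0.053 to 0.064).

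Over the genes of the family, 8 regions had their centre in a 3′ UTR or at most 2000 bp past the 3′ end, 3 at Fos, 2 each at Fosb and Jun, and 1 at Junb, a group formed after the values were seen. Summed over the 8, accessibility was 421 and 383 CPM in BM and 340 and 378 in LI, but 309 and 209.6 in SI, 234 and 166 in pancreas, and 236 and 247 in lung, so that BM and LI lay above the 6 other libraries. Of the 8 regions, 6 differed among tissues, against 35.9% of the 1960 regions of the table placed in the same way. Their median log2 fold change was 0.63 in BM, where that of the 1960 was 0.07, and 0.56 in LI, where it was −0.07. It was −0.67 in pancreas (−0.08 over the 1960), −0.32 in lung (−0.04) and −0.12 in SI (0.15). In pancreas 8 of 8 were below 0 and 4 were called lower, against 2.30% of the 1960. In BM 4 of the 8 were called higher (12.8% of the 1960) and in LI 2 (4.85%). The Fos region 4.9 kb downstream of the TSS went against the others, with 9.40 and 12.1 CPM in BM, 17.5 and 12.6 in lung and 19.7 and 12.3 in SI, and passed no test. The BM median was 0.51 to 0.73, the LI median 0.33 to 0.70 and the pancreas median −1.13 to −0.47 under the other settings, the last pair without pancreas replicate 1 and 2. The SI median was −0.67 without SI replicate 1, 0.12 without SI replicate 2 and 0.04 with library size alone.

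**Figure D5:**
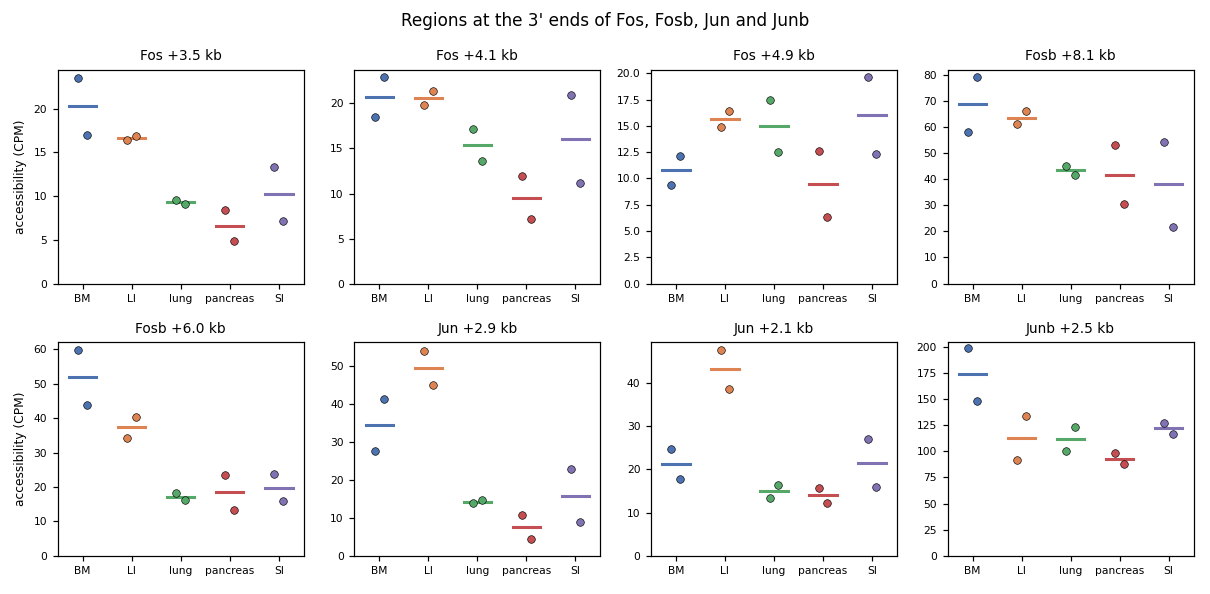
Accessibility in CPM of the 8 regions in 3′ UTRs or at most 2000 bp past the 3′ ends of Fos, Fosb, Jun and Junb, by tissue, named by the distance from the TSS. Points are the 2 libraries of a tissue and horizontal lines their mean. Pancreas has the lowest mean at all 3 regions of Fos, both of Jun and the one of Junb, and BM the highest at both of Fosb.

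Farther from Fos, BM had a pair of TS OCRs, both of which, like the region 45.9 kb downstream, lie nearer to a predicted transcript when those are counted. The region 59.2 kb downstream of the TSS, was at 28.7 and 22.1 CPM in BM and 8.01 to 16.8 elsewhere (log2 1.28 ± 0.19, adjusted p = 0.00013), and the call held under each of the 17 alternatives. The region 18.5 kb upstream was at 152 and 147 CPM in BM and at 83.3 to 127 elsewhere (log2 0.56 ± 0.15, adjusted p = 0.0091), and lost its call without BM replicate 1 (0.098) or 2 (0.059), with library size alone (0.058) and with GC and width trends removed (0.064). SI had its lowest values in the region 45.9 kb downstream, at 0.867 and 0.697 CPM against 1.33 to 3.30 (log2 −1.58 ± 0.46, adjusted p = 0.021, and 0.073 or 0.12 without SI replicate 1 or 2). The region 45.9 kb downstream did not pass the test across the tissues (adjusted p = 0.087). Other Fos regions went the opposite way. SI was higher at 48.0 kb upstream (log2 1.19, adjusted p = 0.0039), 43.3 kb upstream (0.74, 0.026) and 5.0 kb upstream (1.01, 0.016), and BM was lower at 43.3 kb (−0.73, 0.037) and 32.1 kb upstream (−1.63, 0.0014). In all, 9 of the 19 Fos regions differed among tissues (44.2% of all regions did). In BM 4 were higher and 2 lower (14.9% and 17.0% of all regions). In SI 3 were higher and 3 lower (11.8% and 10.2%).

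SI was also the tissue with the lowest values at a region 6.9 kb upstream of Fosb that held 3 copies of TGANTCA, the most in any of the 67. It was at 11.8 and 9.20 CPM in SI, 23.5 and 19.0 in BM, 20.7 and 22.5 in LI, 15.3 and 20.0 in lung and 21.1 and 18.7 in pancreas. Both SI libraries lay below all others (log2 −0.94 ± 0.19, adjusted p = 0.0023), the call held under each of the 17 alternatives, and no other tissue passed the test against the mean of the rest. The stretch with the 3 sites is shown on the strand of Fosb from chr7:19316771-19317016.
Fosb upstream: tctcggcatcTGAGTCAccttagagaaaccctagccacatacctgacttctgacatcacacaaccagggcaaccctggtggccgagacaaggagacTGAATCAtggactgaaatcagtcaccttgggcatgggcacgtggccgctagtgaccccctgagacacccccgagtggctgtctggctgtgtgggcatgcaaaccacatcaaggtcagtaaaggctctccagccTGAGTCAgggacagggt

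Fosl1 and Fosl2 encode Fra-1 and Fra-2, the Fos proteins that rise later and last longer after a stimulus. Fosl2 was lower in BM at the region 2.9 kb upstream of its TSS, with 34.8 and 39.9 CPM in BM, 42.2 and 54.8 in SI, 64.7 and 68.6 in LI, 72.3 and 58.6 in pancreas, and 73.9 and 89.2 in lung. BM lay below all other libraries (log2 −0.79 ± 0.16, adjusted p = 0.0019, and 0.057 without BM replicate 1) and lung above them (0.62 ± 0.15, 0.010). BM differed from LI, lung and pancreas, and the difference from SI did not pass (0.17). The Fosl2 promoter, 0.9 kb upstream, was at 75.4 and 125 CPM in SI and at 109 to 149.7 elsewhere, and did not pass the test across the tissues (adjusted p = 0.32). Without SI replicate 2 it would be called lower in SI (log2 −0.80, adjusted p = 0.010). The Fosl1 promoter was at 20.2 to 30.2 CPM. Neither it nor the intronic region 1.1 kb downstream of the Fosl1 TSS passed the test across the tissues (adjusted p = 0.59 and 0.084). The intronic region 1.1 kb downstream had 11.5 and 13.1 CPM in SI and 4.55 to 9.33 elsewhere (log2 0.70 ± 0.22, adjusted p = 0.029), a call lost without either SI library (0.069 and 0.15), either pancreas library (0.052 and 0.053), LI replicate 2 (0.061) or lung replicate 1 (0.060).

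At Batf, 3 regions in and past the gene were lower in BM. Its promoter was higher there but did not pass the test across the tissues (adjusted p = 0.099). BATF lacks a transactivation domain and acts as a partner of Jun and IRF proteins in lymphocytes. Its promoter was at 43.7 and 36.7 CPM in BM, 26.0 and 30.8 in LI, 26.7 and 31.8 in SI, 35.9 and 31.5 in lung, and 29.6 and 19.7 in pancreas (BM log2 0.48 ± 0.17, adjusted p = 0.040). This call was lost under 7 of the 17 alternatives, with adjusted p from 0.061 to 0.34, the highest without BM replicate 1. The intronic region 11.7 kb downstream of the TSS was also highest in BM, without passing the test (log2 0.45, adjusted p = 0.13). Farther along the introns, the region 17.0 kb downstream of the TSS was at 9.25 and 8.51 CPM in BM, 14.5 and 14.9 in lung, 18.1 and 26.5 in LI, 22.1 and 26.7 in pancreas and 20.9 and 30.0 in SI. BM was below all other libraries (log2 −1.26 ± 0.21, adjusted p = 0.00034) and differed from each of the 4 tissues, and SI was higher than the rest (0.64 ± 0.18, 0.018). The region at 19.0 kb was at 25.4 and 32.3 CPM in BM and 39.2 to 49.1 elsewhere (log2 −0.61 ± 0.15, adjusted p = 0.0064, and 0.14 without BM replicate 1).

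Past the 3′ end of Batf, the region 26.0 kb downstream of the TSS was at 2.15 and 2.30 CPM in BM, 8.37 and 12.2 in LI, 4.72 and 6.76 in SI, 5.10 and 6.29 in lung, and 6.01 and 6.36 in pancreas. It was commonly decreased in BM and a TS OCR of LI at the same time, with log2 fold changes of −1.60 ± 0.27 (adjusted p = 0.00038) and 1.16 ± 0.22 (0.0026). After adjustment BM differed from each tissue, and LI from BM only (0.073 to 0.23 for the others). Upstream of Batf, regions at 25.7 and 20.6 kb were higher in SI, with log2 fold changes of 1.11 ± 0.29 (adjusted p = 0.0097) and 0.69 ± 0.23 (0.039). Each of these 3 regions held 1 TGANTCA, shown with 20 bases on each side from chr12:85712598-85712644, chr12:85661142-85661188 and chr12:85666012-85666058.
Batf downstream: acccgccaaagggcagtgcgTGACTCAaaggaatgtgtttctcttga
Batf upstream at 25.7 kb: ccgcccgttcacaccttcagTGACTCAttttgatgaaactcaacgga
Batf upstream at 20.6 kb: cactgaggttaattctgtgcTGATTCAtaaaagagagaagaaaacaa

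Batf3, best known for the development of cross-presenting dendritic cells, had the least accessible promoter of the family, at 5.84 to 10.4 CPM. This promoter did not pass the test across the tissues (adjusted p = 0.31). A pair of weak distal regions did. The one 12.9 kb downstream was a TS OCR of SI, at 8.71 and 4.67 CPM against 1.06 to 3.61 elsewhere (log2 1.40 ± 0.29, adjusted p = 0.0023), a call lost without SI replicate 1 (log2 0.85, adjusted p = 0.16). The one 20.7 kb downstream was at 6.70 and 6.99 CPM in BM, 1.74 and 4.21 in LI, 1.93 and 1.01 in SI, 3.72 and 2.84 in lung, and 3.36 and 4.21 in pancreas. BM lay above all other libraries (log2 1.33 ± 0.30, adjusted p = 0.0034) and SI was commonly decreased (−1.47 ± 0.37, 0.0092).

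At Atf3, each of the 3 regions had its lowest mean in SI. The region 10.6 kb upstream did not pass the test across the tissues (adjusted p = 0.12) or that of SI against the rest (0.062). The Atf3 promoter was at 56.4 and 70.4 CPM in SI, 63.0 and 88.3 in BM, 76.1 and 87.1 in LI, 106 and 96.9 in lung and 104 and 106 in pancreas. SI and BM overlapped, SI differed from lung (adjusted p = 0.021) and pancreas (0.017), and against the mean of the rest it was at log2 −0.50 ± 0.16 (0.034). This last call was lost under 6 of the 17 alternatives, among them library size alone (adjusted p = 0.20) and the fits without SI replicate 1 (0.22), BM replicate 2 (0.058), LI replicate 2 (0.051), lung replicate 1 (0.062) and pancreas replicate 1 (0.0501). The region 6.8 kb upstream held the firmer difference, at 14.3 and 21.2 CPM in SI, 28.1 and 26.6 in BM, 31.7 and 36.6 in LI, 30.3 and 34.0 in lung and 41.7 and 43.6 in pancreas. SI was below all other libraries (log2 −0.92 ± 0.18, adjusted p = 0.0014) and pancreas above all of them (0.66 ± 0.16, 0.015), and the SI call held under each of the 17 alternatives. Its TGANTCA site is shown on the gene's strand from chr1:191190028-191190074.
Atf3 upstream: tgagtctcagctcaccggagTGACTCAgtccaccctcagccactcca

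TGANTCA was found in 14 of the 67 regions (20.9%), against 25.1% of all regions, so that the family's own regions held it no more often than others. Of these 14, 7 differed among the tissues, and of the 53 without it 23 did. Of the 16 regions higher in BM, 1 held the site, as did 2 of the 8 lower in BM, 3 of the 5 higher in LI, 3 of the 8 higher in SI and 4 of the 8 lower in SI. It was in 2 of the 2 regions higher in pancreas and 0 of the 4 lower there, and in 0 of the 2 higher and 1 of the 4 lower in lung. The composite of AP-1 and IRF sites, TGANTCANNNNGAAA, was in 0 of the 67 and in 0.472% of all regions.

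Over the whole table, regions with TGANTCA outside promoters had their lowest median in BM and their highest in LI. Their median log2 fold change, over 11462 regions, was −0.37 in BM against −0.09 over all 40352 regions outside promoters. It was 0.30 in LI (0.08 over all), 0.20 in pancreas (0.04), −0.06 in SI (0.03) and −0.04 in lung (−0.04). With GC and width trends removed the medians were −0.22 in BM, 0.16 in LI and 0.10 in pancreas. The 2 libraries of BM were at −0.32 and −0.27, those of LI at 0.27 and 0.24 and those of pancreas at 0.11 and 0.26 (median difference in log2 CPM from the mean of the libraries). Outside promoters the site was in 56.7% of the 626 TS OCRs of LI, 46.3% of 681 in pancreas, 30.5% of 617 in lung, 22.3% of 1290 in SI and 16.5% of 1561 in BM, and in 50.3% of the 3155 regions commonly decreased in BM, against 28.4% of all. The TS OCRs of LI and pancreas had a median GC content of 44.9% and 45.7%, against 48.2% over all, and the part of base composition in these shares was not tested.

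Among 32 related genes, 31 had a region, and 91 of their 169 regions differed among tissues (44.2% of all regions did). The BM counts that follow stand beside 14.9% higher and 17.0% lower over all regions. The 11 other immediate early and dissociation-responsive genes, which include Egr1, Ier2, Zfp36 and Dusp1, had 54 regions, of which 18 were higher and 7 lower in BM. Of their 11 promoters, 6 were higher in BM and 0 lower, beside 27.4% and 4.55% of all promoters. These genes respond to cell handling as Fos and Jun do, and its part in the BM differences was not tested. Of 36 regions at upstream kinases 8 were higher and 5 lower in BM, and of 27 regions at factors of the Fos promoter, such as Srf and the Elk genes, 1 was higher and 4 were lower. At the dimer partners Atf2, Atf7 and Jdp2, 7 of 17 regions were higher and 2 lower, with 0 regions at Batf2. The partners of Batf went the other way, with 1 of 35 regions higher and 21 lower in BM, 17 of the lower ones at Irf4.

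Of these genes, Irf4, Klf6 and Jdp2 had the regions with the smallest p. IRF4 is the partner with which BATF binds composite sites, and the region 37009 bp downstream of its TSS was at 46.0 and 39.3 CPM in lung, 27.8 and 28.9 in pancreas, 21.2 and 18.7 in LI, 10.8 and 11.5 in BM, and 3.47 and 2.58 in SI. SI was below all other libraries and lung above them. The Klf6 region 51947 bp downstream was at 11.2 and 10.1 CPM in LI and 8.89 and 13.1 in pancreas but at 2.33 to 3.15 in BM, lung and SI, and the Jdp2 region 29862 bp downstream was at 4.33 and 3.07 CPM in SI against 7.06 to 19.8 elsewhere. Jdp2 encodes a repressor that pairs with Jun.

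Summed over the regions of each gene, Jund had the widest range of tissue means among the 10, at 0.93 on the log2 scale, followed by Atf3 at 0.71. Over the 10 libraries the genes most like Jund in summed accessibility, of 13029 compared, were Mtmr4 (Pearson r = 0.990), G3bp1 (0.982) and Gm10433 (0.981), and those most like Atf3 were Rgs2 (0.985), Tuba8 (0.963) and Mtmr7 (0.963). The libraries of a tissue share its cells and gate, so that these values describe 5 tissues more than 10 separate points.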

How the data were processed

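ATAC-seq libraries of ILC2s from 5 tissues, 2 per tissue, were analysed. The authors checked and trimmed the reads (FastQC 0.11.9 for quality), aligned them uniquely to mm10 (Bowtie2 2.2.9, SAMtools 1.8), called peaks (MACS2 2.1.1), kept those present in both replicates, merged them over tissues and deposited raw counts of reads per region. Removal of duplicates, a blacklist and a shift for the transposase are not given in the sources used here, and duplicate reads would make counts less independent.

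Groups were taken from the labels. The quasi-likelihood test of edgeR 4.0.16 (R 4.3.3) was fitted to all 10 libraries with TMM scaling, over the 49981 of 50039 regions with at least 1 count, with Benjamini-Hochberg adjustment over all of them and 0.05 as threshold. Every adjusted p in the text comes from this fit or a named alternative of it. Contrasts were the 5 tissues together, each tissue against the mean of the other 4, and the 10 pairs. Fold changes are log2 with the standard error. Reads per member region ranged from 14 to 5218. P-values rest on the spread between the 2 libraries of a tissue. That spread was estimated jointly over the 5 tissues, with information shared across regions, and not for each tissue alone. In simulated counts, 69 of 100 regions changed 2-fold in SI and 99 of 100 changed 4-fold were recovered in the contrast of SI against the rest. The test across the 5 tissues recovered 36 and 96 of them. Of the regions left unchanged in the simulation, 20 were called in the contrast of SI and 26 in the test across the 5 tissues. Regions with the lowest counts were not among those changed.

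Regions were placed with curated RefSeq transcripts of GRCm38, from which the sequences also come. Motifs were searched on both strands. The named regions were, for each gene, the promoter, the region with the smallest p in the test across the 5 tissues, and each TS OCR or commonly decreased region. Of the pathway genes, the 3 with the smallest p were named, and the genes most like a member were found for the 2 members with the widest range of tissue means. Other regions given with values were chosen after their values were seen. The members and gene lists were chosen with earlier results of these data known. Alternatives were DESeq2 1.42.0, other scaling, GC and width trends removed, count filters, stricter thresholds, a replicate block, each library left out, and predicted transcripts. The last of these, the filter at a mean of 10 CPM, and the group of regions at 3′ ends were chosen after seeing the data.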

Additional observations from a re-analysis of the deposited data

How the results depend on the processing

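Each of the 30 named regions was followed in 1 tissue against the mean of the others, and none changed direction there. Calls of the same regions in further tissues are not part of this count. Of 510 values of the 30 named regions under 17 alternatives, 462 stayed on their side of the threshold, 47 lost their call and 1 gained it. Of the 67 regions, 30 differed among tissues, and 17 did at an adjusted p under 0.01. With GC and width trends removed, 5 were higher in pancreas. With library size alone, 9 were higher in BM, 2 lower in lung, 1 higher in pancreas and 5 lower in SI. With an adjusted p under 0.05 in each of 4 contrasts, 3 were TS OCRs and 4 commonly decreased, and edgeR on the 4 libraries of each pair gave 5 commonly decreased. When predicted transcripts were also counted, 46 regions were left, of which 18 differed, with 4 lower in BM, 3 higher in LI, 1 higher and 2 lower in lung, 5 higher and 3 lower in SI, 4 TS OCRs and 6 commonly decreased, since fewer regions belonged to the genes. Of the 45 regions with a mean of at least 10 CPM, 4 were lower in BM, 3 higher in LI, 1 higher and 1 lower in lung, 1 higher in pancreas and 1 higher in SI.

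Leaving out 1 library gave 23 to 35 regions that differed, 7 to 19 higher and 4 to 10 lower in BM, 4 to 12 higher and 0 to 1 lower in LI, 0 to 3 higher and 0 to 7 lower in lung, 0 to 5 higher and 0 to 5 lower in pancreas, 2 to 8 higher and 7 to 9 lower in SI, 3 to 10 TS OCRs and 6 to 11 commonly decreased.

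The replicate numbers did not pair the samples, with correlations of deviations from −0.151 to 0.182. With the replicate block, 31 regions differed, 15 were higher in BM and 7 in LI, 5 were lower in pancreas, 7 were TS OCRs and 12 commonly decreased. With the block and GC and width trends removed, 4 were higher in pancreas. With 2 libraries per tissue, depth and replication limit the regions at a few CPM most.

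For regions with TGANTCA outside promoters, library size alone gave medians of −0.46 in BM (−0.17 over all regions outside promoters), 0.17 in LI (−0.049), 0.063 in pancreas (−0.090), 0.11 in SI (0.20) and 0.14 in lung (0.14), so that those of SI and lung changed sign. With GC and width trends removed, the medians were −0.22 in BM, 0.16 in LI and 0.015 in lung, which again changed sign. The median of the 8 regions at 3′ ends changed sign in SI, from −0.12 to 0.12 without SI replicate 2 and to 0.04 with library size alone.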
